A study of Homo sapiens with 4 samples.

Results

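The 3 genes of the RUNX family, RUNX1, RUNX2 and RUNX3, were examined in HiChIP data of the lymphoblastoid cell line HG00731, out of 19970 protein-coding genes on chromosomes 1 to 22 and X. The members were the listed genes of GENCODE release 44 on the hg38 build. For each gene, a window was formed from the gene body and 200 kb on either side, and SMC1 and CTCF peaks with a summit in the window and loops with an anchor in it were collected. Loops with an anchor within 5 kb of an annotated transcript start of the gene were kept apart. The windows held 160 of 96855 SMC1 peaks and 85 of 62869 CTCF peaks. Of the 28012 loops labelled SMC1 they held 64, and of the 80487 labelled CTCF 172.

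HiChIP joins a chromosome conformation assay to chromatin immunoprecipitation, so that contacts between distant DNA fragments are read from the chromatin that carries one protein. SMC1 is a core subunit of cohesin, the ring complex that extrudes chromatin loops, and CTCF is the DNA-binding protein at which extrusion often halts. The line is a B cell line immortalised with Epstein-Barr virus and came from 1 person, without any further treatment. SMC1 was captured after dual cross-linking with formaldehyde and ethylene glycol bis(succinimidyl succinate), and CTCF after formaldehyde alone, so target and fixation cannot be told apart. Both groups had 2 replicates that the authors pooled before calling peaks and loops. No spread between replicates can therefore be given and no test was run, and all intervals below are 95% intervals that cover counting error only. Each list holds exactly as many loops as the study tabulates for the other target, so by its counts the labels of the loop lists are exchanged. Labels were followed in naming both lists, and where the pairing with peaks matters the values with the lists exchanged stand beside the result.

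RUNX proteins are transcription factors that bind DNA through the Runt domain as partners of CBFB. RUNX1 is needed for blood stem cells and is a frequent target of leukaemia translocations, RUNX2 is the master regulator of bone formation, and RUNX3 acts in T cells, B cells and sensory neurons. Each gene is transcribed from a distal promoter, P1, and a proximal promoter, P2. In B cells transformed by Epstein-Barr virus RUNX3 is the main family member, it is driven by the viral nuclear antigens through an upstream super-enhancer, and it represses the RUNX1 P1 promoter through RUNX binding sites there.

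RUNX1 (ENSG00000159216.19) lies on the minus strand of chromosome 21, at 34787801 to 36004667. Its annotated body of 1217 kb owes its length to non-canonical transcripts, since the canonical transcript spans 262 kb. RUNX2 (ENSG00000124813.23) lies on the plus strand of chromosome 6, at 45328157 to 45664349. RUNX3 (ENSG00000020633.19) lies on the minus strand of chromosome 1, at 24899511 to 24965121, and has the shortest body, 65.6 kb. P1 and P2, taken as the 2 groups of starts of basic protein-coding transcripts, were 161 kb apart in RUNX1, 94.2 kb in RUNX2 and 34.7 kb in RUNX3.

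The 3 P1 promoters share a sequence feature that the choice of the genes did not use. Within 300 bp of each P1 start, the reference holds 2 copies of the core RUNX letters TGTGGT, read on the opposite strand and separated by 2 bases. The stretches are shown because they carry this pair, which stands in capitals, and each is written 5′ to 3′ along the transcribed strand.
RUNX1 P1, chr21:35049261-35049286, minus strand: taaacaACCACAgaACCACAagttgg
RUNX2 P1, chr6:45328340-45328365, plus strand: caaacaACCACAgaACCACAagtgcg
RUNX3 P1, chr1:24965122-24965147, minus strand: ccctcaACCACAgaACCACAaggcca
None of the 3 P2 promoters held TGTGGT on either strand within 300 bp of the first start. Among 35116 promoters of the RefSeq table (GRCh38.p14, each from 250 bases before to 50 after the start), 13.1% held TGTGGT on either strand, and 4 promoters held 2 copies in the same direction 2 bases apart. These 4 were RUNX3 P1, RUNX2 P1, OR52N2 and LOC105369321, the last pair named after the search was seen. The table had no entry for RUNX1 P1, and its stretch was read from the genome.

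The 250 bases before the RUNX3 P1 start are printed because an SMC1 peak covers nearly all of them and because loops from this promoter carry the main result below. They lie at chr1:24965011-24965260 on the minus strand, from the RefSeq promoter table, and capitals mark the RUNX letters.
RUNX3 P1: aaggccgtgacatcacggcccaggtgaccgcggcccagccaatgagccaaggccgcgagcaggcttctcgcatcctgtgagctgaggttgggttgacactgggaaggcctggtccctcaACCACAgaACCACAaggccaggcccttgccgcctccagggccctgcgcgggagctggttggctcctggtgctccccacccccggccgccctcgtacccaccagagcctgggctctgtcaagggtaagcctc

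RUNX3 stood apart from the other members in the density of peaks. Its window held 64 SMC1 and 34 CTCF peaks, or 13.7 SMC1 summits per 100 kb (95% Poisson interval 10.6 to 17.6) and 7.30 CTCF summits per 100 kb (5.06 to 10.2). RUNX1 followed with 72 SMC1 and 39 CTCF peaks in a window of 1617 kb, which gave 4.45 SMC1 summits per 100 kb (3.48 to 5.61) and 2.41 CTCF summits per 100 kb (1.72 to 3.30). RUNX2 had the fewest, 24 SMC1 and 12 CTCF peaks, or 3.26 (2.09 to 4.85) and 1.63 (0.842 to 2.85) per 100 kb. The intervals of RUNX1 and RUNX2 overlapped for both targets, and those of RUNX3 overlapped neither. Among the other 19967 protein-coding genes, measured in the same way, 99.4% had a lower SMC1 density than RUNX3, 38.7% a lower one than RUNX1 and 26.0% a lower one than RUNX2. For CTCF density these shares were 91.7%, 27.9% and 15.2%.

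The number of loops at transcript starts followed the same order. RUNX3 had 26 such loops in the list labelled SMC1 and 28 in that labelled CTCF, RUNX1 had 1 and 10, and RUNX2 had 0 and 3. In all protein-coding genes, 35.1% had at least 1 loop at a start in the first list and 59.0% in the second. RUNX3 exceeded 99.5% of the other genes in the list labelled SMC1 and 98.4% in that labelled CTCF. RUNX1 exceeded 64.9% and 85.0%, and RUNX2 exceeded 58.1% in the list labelled CTCF. A further 27 and 83 loops touched the RUNX3 window away from its starts, against 10 and 41 for RUNX1 and 0 and 7 for RUNX2.

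**Figure D1:**
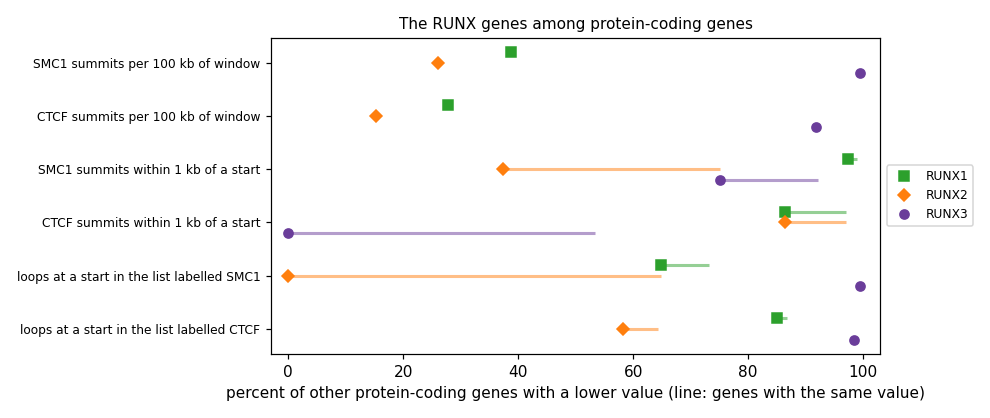
Place of RUNX1 (squares), RUNX2 (diamonds) and RUNX3 (circles) among the other 19967 protein-coding genes in 6 measures; the x axis gives the percent of genes with a lower value, and each line extends over the genes with the same value. RUNX3 lies between 91.7% and 99.5% in both densities and both loop counts, whereas RUNX2 lies at 26.0% and 15.2% in the densities. In SMC1 and CTCF summits within 1 kb of a start, RUNX3 lies at 75.1% and 0%. There RUNX1 lies at 97.4% and 86.4%, and RUNX2 at 37.4% and 86.4%.

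Peaks in the RUNX3 window were many but by fold enrichment not taller than elsewhere. The median fold enrichment over the local background was 2.74 for its SMC1 peaks, from 1.71 to 6.89, below the 3.32 of all SMC1 peaks. It was 3.47 in the RUNX1 window and 3.59 in the RUNX2 window. For CTCF the medians were 3.795 in RUNX3, 4.38 in RUNX1 and 5.02 in RUNX2, and 5.01 over all CTCF peaks. In each window, the highest peak of each target overlapped a peak of the other target.

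Of all SMC1 peaks, 47.1% overlapped a CTCF peak. In the windows the share was 36.1% in RUNX1 (26 of 72, Wilson interval 26.0 to 47.6%), 33.3% in RUNX2 (8 of 24, 17.97 to 53.3%) and 39.1% in RUNX3 (25 of 64, 28.1 to 51.3%). Each share was below that of all peaks, and each interval includes it. In the other direction, 75.9% of all CTCF peaks overlapped an SMC1 peak. In the windows this held for 69.2% in RUNX1 (27 of 39), 66.7% in RUNX2 (8 of 12) and 82.4% in RUNX3 (28 of 34, 66.5 to 91.7%).

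**Figure D2:**
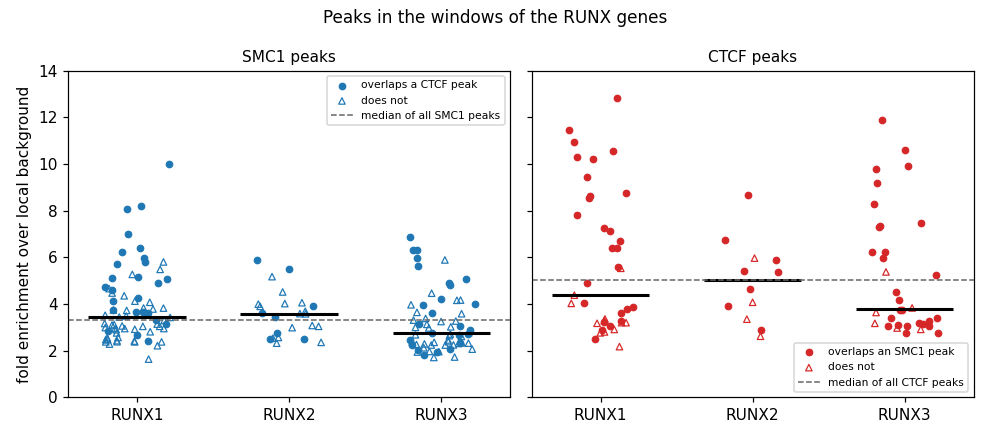
Fold enrichment over the local background of each SMC1 peak (left) and CTCF peak (right) in the window of each RUNX gene; filled circles overlap a peak of the other target, open triangles do not, black bars are medians and the dashed line is the median of all peaks. The RUNX3 medians, 2.74 and 3.795, lie below the dashed lines.

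SMC1 peaks sat on loop anchors in a larger part in RUNX3 than in the other windows. Of all SMC1 peaks, 22% overlapped an anchor of the list labelled SMC1. In the RUNX3 window the share was 53.1% (34 of 64, 41.1 to 64.8%) and in RUNX1 13.9% (10 of 72, 7.72 to 23.7%). In RUNX2 it was 0 of 24, which is fixed because this list has no loop in that window. On anchors of the list labelled CTCF the shares were 71.9% in RUNX3, 41.7% in RUNX1 and 33.3% in RUNX2, against 51.2% of all SMC1 peaks. The level of the shares thus depends on the label. With either list RUNX1 and RUNX2 were below all SMC1 peaks and the order of the genes was the same. CTCF peaks on anchors of the list labelled CTCF were closer to the background of 55.3%. They made up 64.7% in RUNX3 (47.9 to 78.5%), 46.2% in RUNX1 (31.6 to 61.4%) and 41.7% in RUNX2 (19.3 to 68.0%). On anchors of the list labelled SMC1 lay 70.6% of CTCF peaks in RUNX3, 20.5% in RUNX1 and 0% in RUNX2, against 28.0% of all.

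At RUNX3, SMC1 peaks covered 2 annotated starts of transcripts without a defined coding sequence, and no CTCF summit lay within 1 kb of any start. The P1 start, at 24965010, had an SMC1 peak at 24965019 to 24965627, with a fold enrichment of 3.97 and a -log10 q-value of 80.2, which overlapped no CTCF peak and covered the first of these starts, at 24965121. A taller SMC1 peak lay in an intron, at 24962504 to 24964049, with a fold enrichment of 5.98 and a -log10 q-value of 180. It contained a CTCF peak at 24963389 to 24963860 with a fold enrichment of 9.93, whose summit was 1309 bp from the start. At P2, at 24930276, the nearest SMC1 summit was 1263 bp away (fold enrichment 2.39), and the nearest CTCF summit was 2186 bp away in a peak at 24931682 to 24933131 with a fold enrichment of 7.30. That SMC1 summit was 215 bp from the start of a shorter transcript without a defined coding sequence. Of all protein-coding genes, 46.7% had a CTCF summit and 62.6% an SMC1 summit within 1 kb of a start.

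Both RUNX3 promoters had loops to 4 adjacent bins 55.0 to 75.0 kb upstream of P1, at 25020001 to 25040000, where no protein-coding gene is annotated. These bins held 8 SMC1 summits with fold enrichments from 1.71 to 5.64, 4 of them in peaks that overlapped a CTCF peak, and 4 CTCF summits from 3.12 to 7.47. The strongest SMC1 peak of the whole window by q-value lay here, at 25036912 to 25037763 (fold enrichment 5.64, -log10 q-value 245), and the fourth strongest lay beside it at 25038059 to 25038589 (fold enrichment 4.21). Of the read pairs in loops at RUNX3 starts, 532 of 956 (55.6%) in the list labelled SMC1 and 1732 of 1986 (87.2%) in that labelled CTCF had their other end in these bins. By promoter, the share in the list labelled SMC1 was 45.5% of 657 read pairs for P1 and 62.2% of 331 for P2, and in the list labelled CTCF 87.4% of 1187 and 86.0% of 749. By number, 12 of 26 and 19 of 28 start loops ended there.

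P1 was joined to this upstream region by the largest counts. The bin pair 24960001 to 24965000 and 25035001 to 25040000 had 112 read pairs against 16.2 expected in the list labelled SMC1, a ratio of 6.92 (5.70 to 8.32). In the list labelled CTCF it had 241 against 40.8, a ratio of 5.91 (5.19 to 6.71). These counts exceeded those of 99.0% and 99.6% of all loops of the 2 lists, while the ratios exceeded 88.8% and 75.9%. The next bin of the upstream region, 25030001 to 25035000, held SMC1 peaks and no CTCF peak, and was joined to P1 by 69 read pairs (ratio 5.79) and 248 read pairs (ratio 5.46). The P1 start itself lies 10 bp past the end of the 24960001 bin, which holds the intronic SMC1 and CTCF peak described above. The bin that contains the start was joined to 25030001 by 119 read pairs in the list labelled CTCF, a ratio of 4.74. The bin at 25020001 and the P1 bin were joined by 114 read pairs (ratio 3.33) in the same list.

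P2 reached the same bins with fewer read pairs. The P2 bin, 24930001 to 24935000, and the bin at 25035001 were joined by 73 read pairs against 18.4 expected in the list labelled SMC1, a ratio of 3.97 (3.12 to 5.00), and by 140 against 27.04 in the list labelled CTCF, a ratio of 5.18 (4.36 to 6.11). In both lists 5 upstream bins were joined to both promoters. With 24960001 as the P1 bin, which ends before the start, the ratio was higher at P1 in 5 of 5 bins in the list labelled SMC1. In that labelled CTCF it was higher in 4 of 5. The counting intervals of P1 and P2 lay apart in 2 and 1 of these bins, so most of the differences were within counting error. From the bin at 24965001, which holds the P1 start, the ratios to 25035001 were below those of P2, 2.61 (SMC1) and 3.43 (CTCF). In the list labelled CTCF, its ratios to 25020001, 25025001 and 25030001 were 5.81, 3.55 and 4.74, above the 2.41, 2.86 and 3.44 of P2. P1 and P2 were joined to each other in the list labelled SMC1 only, by 71 read pairs against 31.8 expected (ratio 2.23, 1.75 to 2.82). A short loop of P1 to 24950001, inside the gene, had 85 read pairs (ratio 2.70) in this list, and the 24950001 bin was itself joined to 25035001 by 50 (ratio 4.62). In the list labelled CTCF the 24950001 bin was joined to 25030001 by 123 read pairs (ratio 3.50). The bins 25020001 and 25030001 of the upstream region were joined to each other by 304 read pairs against 150.8 expected (ratio 2.02), the highest count of the window.

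**Figure D3:**
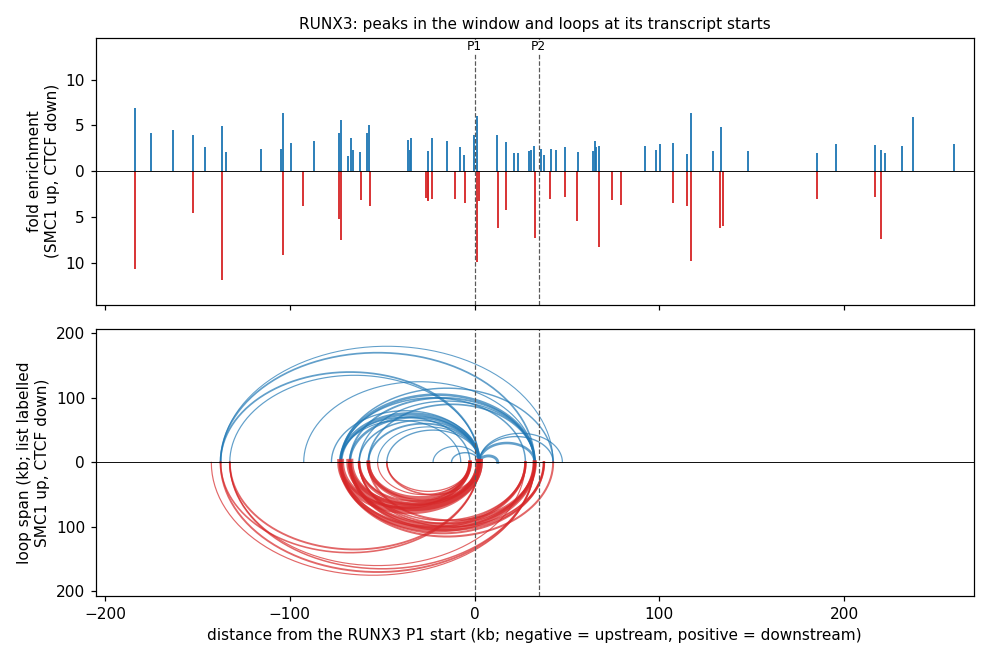
Peaks and loops of RUNX3 by distance from the P1 start in kb (negative is upstream). Top, fold enrichment of SMC1 peaks (blue, up) and CTCF peaks (red, down); bottom, loops at RUNX3 starts as arcs whose height is the span in kb and whose width grows with the read pairs, from the lists labelled SMC1 (blue, up) and CTCF (red, down). Of the arcs, 12 of 26 in blue and 19 of 28 in red end between 55.0 and 75.0 kb upstream of P1.

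A wider loop enclosed the gene and its upstream region. Its anchors at 24845001 and 25100001, 255 kb apart, had 55 read pairs against 9.11 expected in the list labelled SMC1 (ratio 6.04, 4.55 to 7.86) and 108 against 9.03 in the list labelled CTCF (ratio 12.0, 9.81 to 14.4). These anchors held the 2 CTCF peaks of the window with the highest -log10 q-values, 284 at 25101401 to 25102427 and 213 at 24847253 to 24848619, with fold enrichments of 11.9 and 9.80. Their SMC1 peaks had fold enrichments of 4.91 and 6.33. The left outer anchor was also joined to 25035001 by 33 read pairs (ratio 2.80) in the list labelled SMC1. It was joined beyond 25100001 as well, so "outer" names the anchors of this loop and not the farthest partner. With 25200001 it had 29 read pairs (ratio 7.42) in the list labelled SMC1 and 67 (ratio 14.1) in that labelled CTCF. With 25205001 it had 20 (ratio 4.97) and 74 (ratio 14.6). A further CTCF peak of the window, at 25148106 to 25149331, had a fold enrichment of 10.6. Both promoters also reached the 25100001 anchor. P1 had 39 read pairs with it (ratio 3.98) in the list labelled SMC1 and 34 (ratio 2.42) in that labelled CTCF, and P2 had 38 (ratio 3.08) and 44 (ratio 4.22).

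Best matches to the CTCF motif in these peaks are shown because the motif has a direction and loop anchors often hold motifs that point toward each other. Capitals mark the 19 positions of the motif learned from CTCF summits on other chromosomes, and each sequence is written in the direction of the motif, on hg38.
RUNX3 left outer anchor, chr1:24848083-24848111, plus strand: gaagtGGCCAGCAGGGGCCGCGGTtcccc
RUNX3 near P2, chr1:24932314-24932342, plus strand: gaccaGGGCGGCGGGGGGAGGGGGggcgg
RUNX3 near P1, chr1:24963691-24963719, plus strand: gaggaAGGCAGCAGGGGGTGTCTGaggcc
RUNX3 upstream region, chr1:25037337-25037365, plus strand: ctgccAGCCAACAGAGGGCAACATgtata
RUNX3 right outer anchor, chr1:25101596-25101624, minus strand: ccaacGGACAGCAGAGGGCGCCAActcaa
The outer anchors had the highest scores, 18.1 bits on the plus strand and 17.8 bits on the minus strand, and so pointed toward each other. The printed best matches near P1 (11.1 bits), near P2 (13.8 bits) and in the upstream region (12.9 bits) were on the plus strand. The match near P2 lies in a run of G bases, and within 50 bp of that summit the best match was on the minus strand (10.8 bits). Of the other CTCF peaks of the upstream region, those at 25026414 and 25038118 had plus-strand matches (14.8 and 11.1 bits). The one at 25021531 had a minus-strand match (11.8 bits). A match of at least 10 bits was present in 20 of the 34 CTCF peaks of RUNX3, 22 of 39 of RUNX1 and 7 of 12 of RUNX2, against 57.8% of all CTCF peaks and 21.2% of regions of the same length 5 kb away. At least 7 bits within 50 bp of the summit was found in 36 of the 85 CTCF peaks of the windows, or 42.4%, against 34.7% of all.

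RUNX1 had its promoter loops mainly in the list labelled CTCF, where 7 of 10 touched P2 and 5 touched P1, with 2 joining both. The highest CTCF peak by fold enrichment near a RUNX1 promoter, at 34889416 to 34890302 (fold enrichment 10.3, -log10 q-value 119), lay 1262 bp from P2 and overlapped an SMC1 peak with a fold enrichment of 4.25. P1, at 35049344, had an SMC1 peak 334 bp away with a fold enrichment of 3.17 and a -log10 q-value of 11.2, and the nearest CTCF summit to P1 was 22453 bp from another of its 3 starts, at 35049298. With 16 annotated starts, RUNX1 had 4 SMC1 and 2 CTCF summits within 1 kb of a start. Of the SMC1 summits, 3 lay around P2, at 34886432, 34887927 and 34889924, with fold enrichments of 1.64, 2.39 and 4.25. The second CTCF summit, at 34858671 (fold enrichment 3.29), was 907 bp from a start inside the gene.

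The strongest peaks of the RUNX1 window lay far from its promoters. The SMC1 peak at 36027608 to 36029110 (fold enrichment 9.999, -log10 q-value 245) and the CTCF peak it contains (fold enrichment 12.8, -log10 q-value 260) were between genes, 979 kb upstream of P1 and nearest to the coding gene SETD4. The next pair, with summits at 36141775 for SMC1 (8.08-fold) and 36141743 for CTCF (10.6-fold), lay near CBR3, as did a CTCF summit at 36125714 (8.74-fold) and an SMC1 summit at 36112538 (8.22-fold). Inside or downstream of the gene were SMC1 summits at 34801569 (7.02-fold) and 34746054 (5.79-fold) and a CTCF summit at 34693530 (10.95-fold) in an intron of CLIC6.

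The only RUNX1 start loop in the list labelled SMC1 joined the P2 bin 34885001 to 34890000 with 35400001 to 35405000, 515 kb away, by 14 read pairs against 1.85 expected (ratio 7.58, 4.14 to 12.7). The same bin pair had 22 read pairs against 3.91 in the list labelled CTCF (ratio 5.63, 3.53 to 8.52). The far anchor lies 353 kb upstream of P1, inside the body that only the long transcripts give the gene, and held a CTCF peak with a fold enrichment of 9.44 and an SMC1 peak of 5.17. The other loops of P2 in the list labelled CTCF ran to bins inside the gene. The largest counts were 71 read pairs against 32.5 expected at 34875001 (ratio 2.18) and 58 against 15.0 at 34800001 (ratio 3.86, 2.93 to 4.99), whose neighbour 34805001 had 29 (ratio 3.53).

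P1 and P2 of RUNX1 were joined by 19 read pairs against 5.78 expected (ratio 3.29, 1.98 to 5.13) between 34885001 and 35045001, and by 14 (ratio 2.63) with the bin next to it. Both loops were in the list labelled CTCF. P1 was further joined to 34970001 and 34985001, between P1 and P2, by 17 to 22 read pairs, with ratios from 2.91 to 3.39. Each of these anchors held an SMC1 peak and no CTCF peak. The largest loop of the RUNX1 window away from its starts joined 36140001, beside the carbonyl reductase gene CBR3, with 36330001, beside MORC3, by 93 read pairs against 7.75 (ratio 12.0) in the list labelled CTCF and by 22 (ratio 4.80) in the other list. MORC3 was also reached from 36150001 by 54 read pairs (ratio 9.16) in the list labelled CTCF and from 36125001 by 19 (ratio 3.32) in the list labelled SMC1. The bins 36140001 and 36205001 were joined by 53 read pairs (ratio 6.08) in the list labelled CTCF. On the downstream side, 34360001, beside the potassium channel gene KCNE2, was joined to 34630001 by 22 read pairs (ratio 3.38) in the list labelled SMC1.

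The CTCF matches at the RUNX1 anchors are shown for the P2 peak and its 2 CTCF-bound partners, with capitals as before.
RUNX1 anchor inside the gene, chr21:34801692-34801720, plus strand: tggtgGGCCAGAAGGTGGGGATGGtgagc
RUNX1 near P2, chr21:34890196-34890224, plus strand: ctggcGGACGCCAGGGGGCAGCAGccgcc
RUNX1 far anchor, chr21:35400615-35400643, minus strand: aggaaGGCCAATAGGTGGCAGAGCaatct
The match near P2 scored 17.6 bits and that at the far anchor 14.6 bits, and they pointed toward each other. The P2 match lies just past the bin of the 515 kb loop, in the bin 34890001 to 34895000. That bin was joined to 35400001 by 19 read pairs against 2.32 expected in the list labelled CTCF (ratio 8.19, 4.93 to 12.8). Within the anchors of the 515 kb loop itself, the best matches pointed the same way.

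RUNX2 had no loop in the list labelled SMC1, and 3 of its 10 loops in the list labelled CTCF were at a start, all at P2. No SMC1 or CTCF summit lay within 5 kb of P1, where the nearest SMC1 summit was 17910 bp and the nearest CTCF summit 17716 bp away. At P2, at 45422485, an SMC1 peak with a fold enrichment of 2.49 and a CTCF peak of 2.87 had summits 179 and 260 bp away. A second CTCF summit near the start, at 45421761, had a fold enrichment of 3.35. The P2 bin 45420001 to 45425000 and the bin 45710001 to 45715000, 290 kb downstream and beyond the gene's 3′ end, had 34 read pairs against 4.04 expected (ratio 8.42, 5.83 to 11.8). P2 also reached 44655001, 671 kb upstream of P1, through 17 read pairs from the bin 45415001 (ratio 7.58, 4.42 to 12.1) and 12 from the bin 45420001 (ratio 5.05, 2.61 to 8.82).

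The strongest SMC1 peak of the RUNX2 window, at 45377008 to 45378689 (fold enrichment 5.88, -log10 q-value 61.6), lay in a RUNX2 intron 214 bp from a start of SUPT3H, a gene for a subunit of transcriptional coactivator complexes that overlaps RUNX2 on the other strand. Its bin was joined to 45710001 by 32 read pairs (ratio 7.03) and to 44655001 by 20 (ratio 6.80). The same 2 distant anchors were thus shared by the SUPT3H start and RUNX2 P2. The strongest CTCF peak of the window was the one at 45714615 to 45715389 (fold enrichment 8.69, -log10 q-value 73.5), with an SMC1 peak of 3.93-fold. The other strong CTCF summits were at 45419678 (6.74-fold), 45378157 (5.43-fold), 45721889 (5.91-fold) and 45500589 (5.97-fold). The other strong SMC1 summits, at 45681952 (4.52-fold), 45710624 (3.08-fold) and 45677960 (3.90-fold), lay downstream of the gene and overlapped no CTCF peak. Away from the starts, 45710001 was further joined to 45920001 by 33 read pairs (ratio 4.14) and to 45675001 by 32 (ratio 2.07).

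The matches at the P2 peak and its distant anchors are shown for their direction.
RUNX2 distant upstream anchor, chr6:44655676-44655704, plus strand: cccgcAGACACCAGGTGGCGCCCGagtct
RUNX2 near P2, chr6:45421763-45421791, plus strand: ctcgcGGCCGGCTGGCGGCGGCAGcggct
RUNX2 distant downstream anchor, chr6:45714904-45714932, minus strand: caagaATCCAGTAGAGGGGGATGTtgcat
They scored 17.7, 14.1 and 10.99 bits. P2 and the downstream anchor pointed toward each other, while P2 and the upstream anchor pointed the same way.

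**Figure D4:**
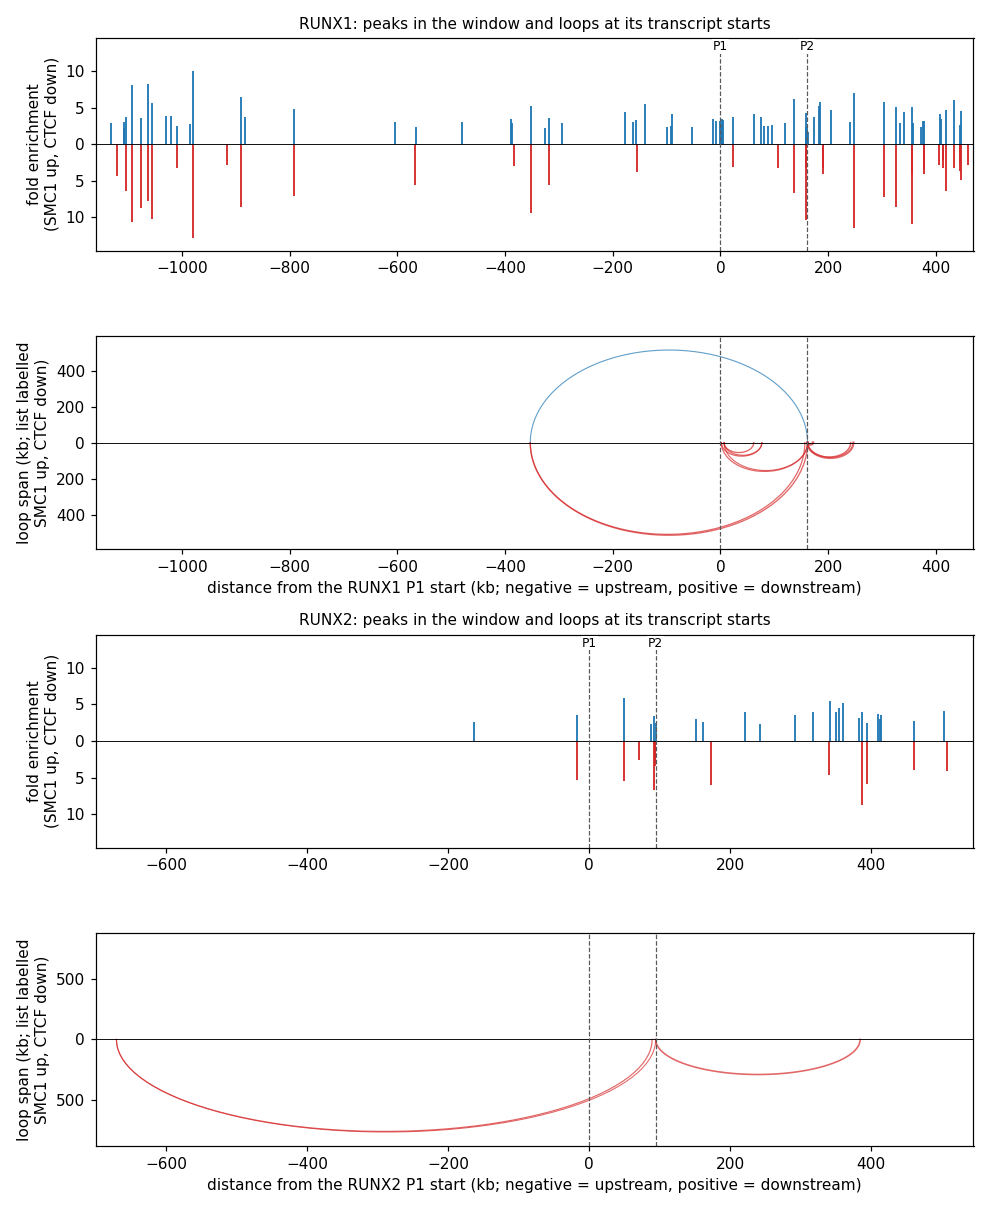
Peaks and loops of RUNX1 (upper panels) and RUNX2 (lower panels) by distance from the P1 start in kb, drawn as for RUNX3. RUNX1 has 1 arc from the list labelled SMC1, spanning 515 kb, and RUNX2 has none, with its 3 arcs of the list labelled CTCF all starting at P2.

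At no RUNX gene did the far anchor of a promoter loop hold the start of another protein-coding gene within 5 kb. All far anchors of RUNX1 lay within its own body, both of RUNX2 lay outside any protein-coding gene, and those of RUNX3 lay in its own body or in the stretch upstream. Loops are called for an excess of read pairs over the expectation, and the ratio of RUNX3 start loops ranged from 2.23 to 7.87 in the list labelled SMC1 and from 2.16 to 5.91 in that labelled CTCF. The median ratios, 3.31 and 3.40, were below those of all loops, 4.004 and 4.031, while the median read pairs, 27 and 49.5, were above those of all loops, 21 and 23. The RUNX3 start loops were shorter, with median spans of 72.5 and 95 kb against 130 and 125 kb over all loops.

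**Figure D5:**
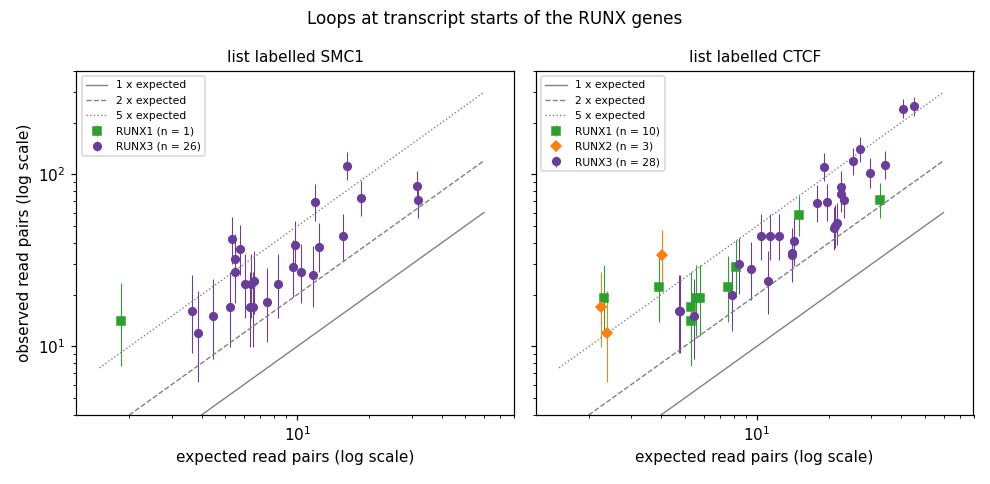
Observed against expected read pairs of each loop at a transcript start of RUNX1 (squares), RUNX2 (diamonds) and RUNX3 (circles) in the lists labelled SMC1 (left) and CTCF (right), both axes logarithmic; bars are 95% Poisson intervals and lines mark 1, 2 and 5 times the expectation. RUNX3 loops reach 112 and 248 read pairs, and the 3 RUNX2 loops lie above 5 times the expectation.

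Most RUNX3 loops were present in both lists, and no RUNX2 loop was. Allowing anchors to differ by 15 kb, 91.7% of all loops labelled SMC1 and 53.4% of those labelled CTCF had a counterpart in the other list. For RUNX3 the shares were 86.8% (46 of 53, 75.2 to 93.5%) and 74.8% (83 of 111, 66.0 to 81.9%). For RUNX1 they were 11 of 11 and 41.2% (21 of 51, 28.8 to 54.8%). For RUNX2 the count was 0 of 10, which is fixed because the list labelled SMC1 has no loop in its window. All 28 RUNX3 start loops labelled CTCF had a counterpart. The same bin pair was in both lists for 37 RUNX3 loops and 9 RUNX1 loops, and the ratio was higher in the list labelled SMC1 in 16 and 2 of them.

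CTCF peaks at both anchors were found in 57.9% of all loops labelled SMC1 and 47.7% of those labelled CTCF. In the RUNX3 window they were found in 37 of 53 and 39 of 111 loops, so the list labelled SMC1 had the larger part. With the lists exchanged, the larger part falls to the loops of CTCF. A CTCF peak at 1 anchor or both was found in 53 of 53 and 95 of 111 RUNX3 loops. For an SMC1 peak these counts were 53 and 111. The paper states that 1 anchor or more of a called loop is enriched for the target. A full count for a list's own target is therefore set by the calling. With the lists exchanged, this applies to the 53 with a CTCF peak and the 111 with an SMC1 peak. CTCF peaks at both anchors were found in 7 of 11 and 26 of 51 RUNX1 loops, and in 7 of 10 RUNX2 loops labelled CTCF. SMC1 peaks at both anchors were found in 45 of 53 and 82 of 111 RUNX3 loops.

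Motif directions over whole anchors were near the background over the loops of each window, and the shares were lower among start loops. With the best match of at least 7 bits in each 5 kb anchor, motifs pointed toward each other in 45.4% of all loops labelled SMC1 and 44.1% of those labelled CTCF. The shares were 47.2% (25 of 53, 34.4 to 60.3%) and 41.4% (46 of 111, 32.7 to 50.7%) in RUNX3. In RUNX1 they were 4 of 11 and 45.1% (23 of 51, 32.3 to 58.6%), and in RUNX2 4 of 10. Among start loops, which share anchors, motifs pointed toward each other in 26.9% (7 of 26, 13.7 to 46.1%) and 32.1% (9 of 28, 17.9 to 50.7%) in RUNX3, 0 of 1 and 3 of 10 in RUNX1, and 1 of 3 labelled CTCF in RUNX2. The RUNX3 intervals include the shares of all loops. Nearly every anchor holds a match at this score, so a share says little about single loops. The RUNX letters TGTGGT, on either strand within 100 bp of an SMC1 summit, were found at 10 of 72 summits in RUNX1, 1 of 24 in RUNX2 and 10 of 64 in RUNX3 (15.6%, 8.71 to 26.4%), against 14.9% of all SMC1 summits. One of them lay beside the strongest SMC1 summit of RUNX3, whose surrounding 201 bases are printed with the letters in capitals (chr1:25037323-25037523, plus strand).
RUNX3 upstream summit: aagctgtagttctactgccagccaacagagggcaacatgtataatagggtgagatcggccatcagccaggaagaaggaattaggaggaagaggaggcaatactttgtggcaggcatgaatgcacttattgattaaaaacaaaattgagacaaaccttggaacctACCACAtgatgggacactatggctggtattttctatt

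The genes most like each member, by Euclidean distance between percentile ranks over the 6 measures plotted for all genes, lay on other chromosomes. They were CYP2W1, ST6GALNAC4 and SKAP1 for RUNX3 (distances of 3.10, 4.97 and 7.02 percentile points), PRLR, G3BP2 and FRYL for RUNX1 (8.55, 10.04 and 11.6), and GALNT14, PDLIM5 and EEIG2 for RUNX2 (8.41, 8.75 and 10.4).

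Of 16 genes for partners, cofactors and regulators of RUNX proteins, 14 had an SMC1 summit and 9 a CTCF summit within 1 kb of a start, beside 62.6% and 46.7% of all protein-coding genes. A start loop was found for 12 in the list labelled SMC1 and for 13 in that labelled CTCF, beside 35.1% and 59.0% of all. Their medians were 2 and 12 start loops, against 0 and 1 in the other genes. CBFB, the shared partner subunit, had 4 and 17. HDAC1, a histone deacetylase of corepressor complexes, had 28 and 22, the highest of the 16 in both lists. YAP1, a coactivator of the Hippo pathway, TLE1 and TLE4, corepressors of the Groucho family, had 0 in both.

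The label of a B cell line was checked on marker genes. An SMC1 summit lay within 1 kb of a start in 9 of 9 B cell markers, in 2 of 6 T cell markers (CD4 and CD8A), in 1 of 4 erythroid markers (EPOR) and in 1 of 4 muscle and liver markers (MYOD1), beside 62.6% of all genes. CTCF summits were found in 7 of 9, 2 of 6, 1 of 4 and 1 of 4. Start loops set the groups apart less, with 7 of 9, 4 of 6, 2 of 4 and 1 of 4 in the list labelled SMC1 and 9 of 9, 5 of 6, 2 of 4 and 2 of 4 in that labelled CTCF.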

How the data were processed

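The deposited peak lists give, per the authors' methods, MACS3 3.0.1 calls on reads aligned to hg38, with both replicates pooled and without an input sample. As fold enrichment the authors deposited a ratio, summit over local background. Significance was deposited as a -log10 q-value of MACS3. The deposited loop lists were made by MAPS in 5 kb bins on pooled replicates and hold raw counts of read pairs beside the expected number. The authors also deposited a false discovery rate (q-value) per loop, at most 0.01, not used further. The depth per library is not part of the lists. The list labelled SMC1 totals 788356 read pairs and that labelled CTCF 2666327.

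The members, gene lists and measures were chosen with earlier results of these data known. Peaks on chromosomes 1 to 22 and X were used, and overlap meant at least 1 bp. For each member the text names the 5 peaks per target with the highest -log10 q-value, peaks with a summit within 1 kb of a start, the 5 start loops and 3 other loops per list with the most read pairs, and the 3 genes nearest in percentile ranks. Other anchors are named where promoter loops meet. The CTCF motif was learned by expectation maximization from 3000 summits and 50 bp on either side, and the scripts were tested on simulated data. Wilson and exact Poisson intervals were computed with SciPy 1.17.1 in Python 3.11.15, and sequences were read with pysam 0.24.0.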

Additional observations from a re-analysis of the deposited data

How the results depend on the processing

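No paired analysis was possible because the deposited lists pool the replicates, and no result has a test. Of 111 values under an alternative, 60 stayed within 1.5 times the count reported or inside the counting interval of the share. A minimum -log10 q-value of 10 left 43 SMC1 and 23 CTCF peaks in RUNX1, 13 and 7 in RUNX2 and 18 CTCF peaks in RUNX3; 53.5% of the SMC1 peaks of RUNX1 then overlapped a CTCF peak, and 65.1% of SMC1 and 94.4% of CTCF peaks of RUNX3 overlapped an anchor of their list. For RUNX1, a window of 100 kb left 22 CTCF peaks and 0 and 11 other loops labelled SMC1 and CTCF, and the span of the canonical transcript left 47 SMC1 and 24 CTCF peaks and 4 and 14 other loops. When loops under their list's median count were left out, RUNX1 had 0 and 3 start loops and 2 and 17 other loops, RUNX2 had 1 start loop and 4 other loops labelled CTCF, and RUNX3 had 8 and 39 other loops. With the start inside the anchor, RUNX3 had 8 start loops labelled SMC1 and 16 labelled CTCF.

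With the loop lists exchanged, start loops labelled SMC1 and CTCF became 10 and 1 for RUNX1 and 3 and 0 for RUNX2. The share of SMC1 peaks on anchors became 41.7% in RUNX1, 33.3% in RUNX2 and 71.9% in RUNX3, and that of CTCF peaks 20.5% in RUNX1 and 0% in RUNX2. For start loops the exchange only swaps the names of the lists, so the place of RUNX3 above RUNX1 and RUNX2 could not change. In the shares of peaks on anchors RUNX3 stayed above both. Without tolerance, counterparts were 17.6% for RUNX1 loops labelled CTCF, and 69.8% and 33.3% for RUNX3. With the motif at the CTCF summit, an alternative chosen after seeing the data, motifs facing each other made up 100% and 75% in RUNX1, 0% in RUNX2 (CTCF) and 22.2% in RUNX3 (SMC1), each over fewer than 10 loops. Against the 5394 genes at least as long as RUNX3, shares of genes below RUNX1 were 49.1% and 38.1% for SMC1 and CTCF density and 66.2% and 79.0% for start loops, those below RUNX2 were 32.9%, 20.3% and, for loops labelled CTCF, 52.5%, and those below RUNX3 were 99.9%, 98.4% and, for loops labelled CTCF, 96.4%. Causes of these changes were not tested beyond what each setting removes.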
